A study of Mus musculus with 12 samples.

Results

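Proteasome subunit genes were taken as every gene of the deposited gene table whose symbol begins with Psma, Psmb, Psmc, Psmd, Psme, Psmf or Psmg followed by a number. The 3 genes Psmb8, Psmb9 and Psmb10, which encode the inducible catalytic subunits of the immunoproteasome, were left out. This gave 45 genes among 56980 features, and 44 of them were among the 12052 genes that passed a filter on low counts. The one left untested was Psmb11, the thymus-specific beta subunit, which had between 0 and 6 counts per library. RNA came from mouse macrophages grown out of bone marrow with the growth factor M-CSF. One genotype was wild type (WT) and the other lacked Trem2 (Trem2 KO), a receptor on macrophages that senses lipids. Cells of each genotype were given 25 nM bafilomycin A1 (BafA1) or the solvent DMSO for 22 hours, with 3 libraries in each of the 4 groups. BafA1 blocks the proton pump that acidifies lysosomes. All groups share the steps before treatment, in which bones of several mice were pooled for a replicate (3 animals are named for the knockout work) and the macrophages were frozen and thawed. No source used here says whether pools were shared between treatments, so p-values measure the spread between these libraries. The question put to these genes was whether the proteasome, the other main route of protein breakdown, changes when lysosomal breakdown is lost.

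The proteasome degrades proteins that carry chains of ubiquitin. Its 20S core is a barrel of stacked rings: outer alpha rings guard the entrance, and inner beta rings hold the cutting sites. A 19S cap on either end binds ubiquitin, unfolds the substrate with a ring of ATPases and feeds it into the core, while dedicated chaperones assemble core and cap and are not part of the finished particle. When proteasomes are inhibited, mammalian cells raise the whole set of subunit genes through the transcription factor NRF1 (Nfe2l1), a protein of the endoplasmic reticulum (ER) that is extracted by p97, stripped of sugars by NGLY1 and cut by DDI2. Proteasomes and lysosomes share the work of recycling amino acids in macrophages, and macrophages also exchange catalytic and activator subunits under interferon.

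Total estimated counts per library ran from 4407466 to 7074860. Tags came from the 3′ end of mRNA, so a level in CPM (counts scaled to a common library size) counts transcript ends and can be set beside that of another gene without a length correction. Trem2 averaged 588 and 401 CPM in WT with DMSO and with BafA1, and 212 and 159.6 in KO, lower in every KO library than in any WT library, though the tag need not lie in the deleted part. All 12 macrophage markers listed were detected and tested. With BafA1 9 of them were called lower and 2 higher in WT, and 9 lower and 1 higher in KO by edgeR. Over all genes 25.3% were called lower in WT and 20.7% in KO. The summed level of the macrophage markers fell by 13.7% in WT and 19.5% in KO. Granulocyte markers were present too: none of 15 was at 0 in all libraries, and their summed level lay between 172 and 190.3 CPM in WT DMSO, 51.7 and 62.6 in WT BafA1, 417 and 703 in Trem2 KO DMSO, and 73.3 and 130.4 in Trem2 KO BafA1. In these bulk samples fewer cells of a type and less RNA per cell cannot be told apart, and the part that other cells play in the proteasome values was not tested.

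Proteasome genes were expressed over a wide range. In WT DMSO the 44 tested members ran from 2.92 CPM for Psma8, the testis-specific alpha subunit, to 361 CPM for Psmd8, a lid subunit of the cap, with a median of 99.7 CPM. Psmd8 was also the most abundant member in the other 3 groups. Together the 45 genes held between 0.559% and 0.769% of all counts in a library.

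In WT macrophages BafA1 was accompanied by a broad and mostly small upward shift of proteasome genes with a few large steps. Of the 44 tested members 20 were called, against 46.9% of all genes. Among these 19 rose and 1 fell by edgeR's quasi-likelihood test with Benjamini-Hochberg adjustment over all genes, where 21.6% of all genes were called higher and 25.3% called lower. The share called was thus near that of all genes, while 43.2% of members were called higher. The log2 fold change was above 0 in 39 of 44, with a median of 0.22, while the median over all genes was -0.04. Psmd8 (log2 fold change 1.38), the cap assembly chaperone gene Psmd10 (1.11), the catalytic subunit gene Psmb6 (0.83) and Psme2, one part of an activator ring (0.65), had the highest values. Summed over the 45 genes the level went from 5683 ± 144 CPM (SD, n = 3) to 7349 ± 228, an increase of 29.3%, and Psmd8 alone made a large part of it, since the increase was 20.4% without that gene.

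Trem2 KO macrophages gave a shift with a similar median. There 23 of 44 members were called, against 40.6% of all genes: 22 (50%) rose and 1 fell, against 19.8% of all genes called higher and 20.7% called lower, and the log2 fold change was above 0 in 36 with a median of 0.25 (0.0019 over all genes). The summed level went from 5909 ± 40.1 CPM to 7615 ± 138, an increase of 28.9%, or 22.3% without Psmd8. In both genotypes the sums of the 6 BafA1 libraries lay above those of the 6 DMSO libraries, between 7092 and 7749 CPM against 5556 and 5955. The WT and KO comparisons share no libraries: 15 members rose in both, which is 78.9% of those that rose in WT and 68.2% of those that rose in KO, while over all genes the overlap is 62.2% and 67.8%. Those 15 were Psma2, Psma7, Psmb4, Psmb5, Psmb6, Psmb7, Psmc2, Psmc6, Psmd1, Psmd2, Psmd3, Psmd4, Psmd8, Psmd10 and Psmd13. Across members the log2 fold changes of the genotypes had a Pearson r of 0.80 (0.74 across all genes), given as a description, because genes are not independent replicates. Members called in neither direction in either genotype numbered 17. Beside these values, all 28 listed cell cycle genes fell with BafA1 in WT and 11 fell in KO, and their part in the proteasome values was not tested.

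**Figure D1:**
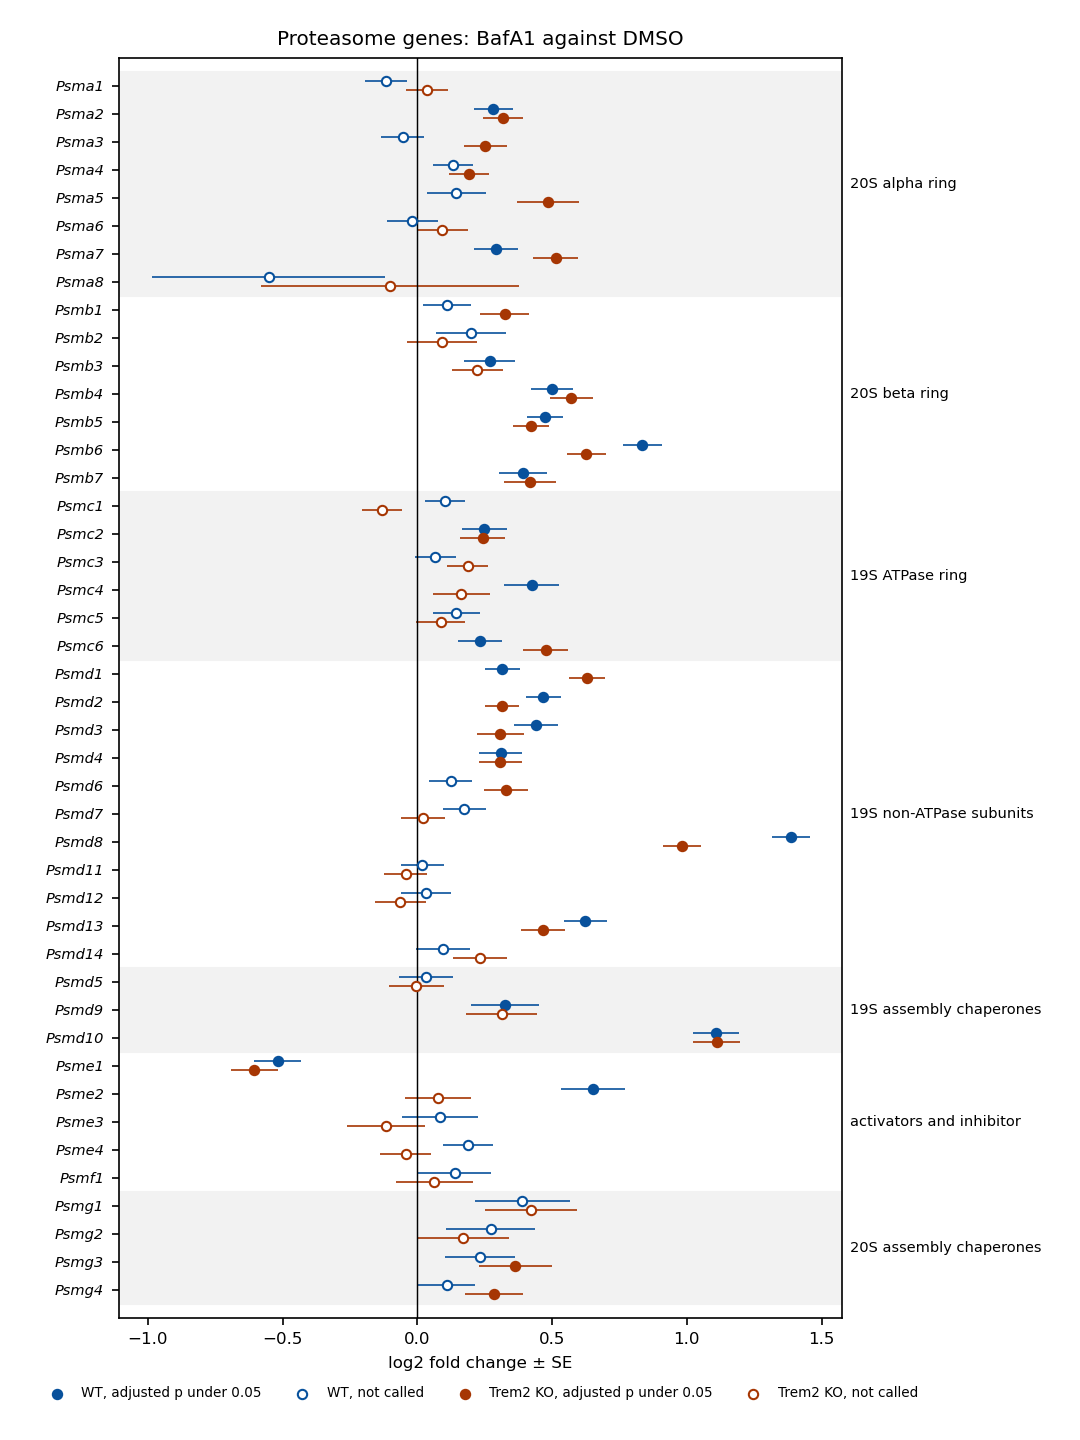
log2 fold change with its standard error for BafA1 against DMSO in WT (blue) and Trem2 KO (brown) for the 44 tested proteasome genes, grouped by role; filled points passed an adjusted p of 0.05 in edgeR. Most points lie to the right of 0, Psmd8 (1.38 and 0.98) and Psmd10 (1.11 in both) lie farthest, and Psme1 (-0.52 and -0.60) is the one called member to the left.

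In WT 15 of the 19 increases held in all 22 alternatives without a fold limit, and Psmb3, Psmc2, Psmc6 and Psmd9 each lost the call without WT DMSO replicate 2 and without WT BafA1 replicate 2, with adjusted p up to 0.0998. Psmb3 also lost it without WT DMSO replicate 3, Psmc6 without WT BafA1 replicate 3, and Psmd9 without replicate 1 of either. In Trem2 KO 17 of 22 held: Psma3 was lost without KO BafA1 replicate 1 or 3, Psmc2 without KO BafA1 replicate 1 or KO DMSO replicate 2, and Psma4 without WT BafA1 replicate 2, KO DMSO replicate 1 or 2, or KO BafA1 replicate 3. Psmg3 was lost without KO DMSO replicate 1 or 2 or KO BafA1 replicate 2 or 3, and Psmg4 without KO DMSO replicate 1 or 3 or any KO BafA1 library, with adjusted p up to 0.173 among these genes. Settings other than leaving out a library ended some of these calls too. In WT, DESeq2 and scaling by library size alone ended that of Psmd9. In KO, DESeq2 ended those of Psma4, Psmg3 and Psmg4, and a fit of only the 6 libraries compared ended these and Psmc2. Using no filter ended Psma4 and Psmg4, and a filter of 10 CPM in 3 libraries ended Psma4. With a further limit of 1.5-fold 5 members rose in WT and 4 in KO.

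The inner beta ring, which holds the proteolytic sites, rose in 5 of 7 tested genes (71.4%) in each genotype, against 21.6% of all genes in WT and 19.8% in KO. The median log2 fold change of the ring was 0.39 in WT and 0.42 in KO. Its summed level went up by 36.1% and 36.7%. All 3 genes of the constitutive catalytic subunits were among those that rose. Psmb6, the caspase-like site, stood at 230.2, 225 and 223 CPM in WT with DMSO, 416, 403 and 389 in WT with BafA1, 276, 287 and 245 in KO with DMSO and 412, 403 and 434 in KO with BafA1. BafA1 libraries of either genotype were all above every DMSO library. The log2 fold change of Psmb6 was 0.83 (SE 0.072, adjusted p 1.98e-09) in WT and 0.63 (SE 0.072, adjusted p 3.1e-07) in KO by edgeR.

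Psmb5, the chymotrypsin-like site and the one that clinical proteasome inhibitors bind, was measured at 233, 219 and 216 CPM in WT with DMSO, 308, 311 and 309 in WT with BafA1, 232, 224 and 215 in KO with DMSO and 300.3, 301 and 299 in KO with BafA1. Its BafA1 libraries lay close together and clear of the DMSO libraries, with log2 fold changes of 0.47 (SE 0.066, adjusted p 3.05e-06) and 0.42 (SE 0.067, adjusted p 2.4e-05) in edgeR; its tags can also match a processed copy, and with the copy's counts added the values were 0.45 and 0.43. Psmb7, the trypsin-like site, was less abundant, at 66.0, 61.7 and 53.3 CPM in WT with DMSO, 81.9, 78.3 and 75.9 in WT with BafA1, 48.7, 47.9 and 50.9 in KO with DMSO and 64.9, 70.5 and 61.6 in KO with BafA1. Within each genotype the treatments did not overlap, and edgeR gave 0.39 (SE 0.089, adjusted p 0.000956) in WT and 0.42 (SE 0.095, adjusted p 0.00117) in KO. Psmb4, a structural beta subunit, had 194, 184 and 161 CPM in WT with DMSO, 247, 266 and 246 in WT with BafA1, 167, 152 and 155 in KO with DMSO and 241, 233 and 229 in KO with BafA1. Here too every BafA1 library exceeded every DMSO library, with 0.50 (SE 0.077, adjusted p 1.17e-05) and 0.57 (SE 0.079, adjusted p 3.88e-06) in edgeR.

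The remaining beta genes moved less. Psmb1 had a log2 fold change of 0.11 (SE 0.088, adjusted p 0.322) in WT, not called, and 0.32 (SE 0.09, adjusted p 0.00577) in KO, while Psmb3 had 0.27 (SE 0.095, adjusted p 0.0231) and 0.22 (SE 0.095, adjusted p 0.0679) by edgeR. The difference between the genotypes was called for neither. Psmb2, at 23.6 CPM in WT DMSO, was not called in either genotype (0.20, SE 0.13 and 0.092, SE 0.13).

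**Figure D2:**
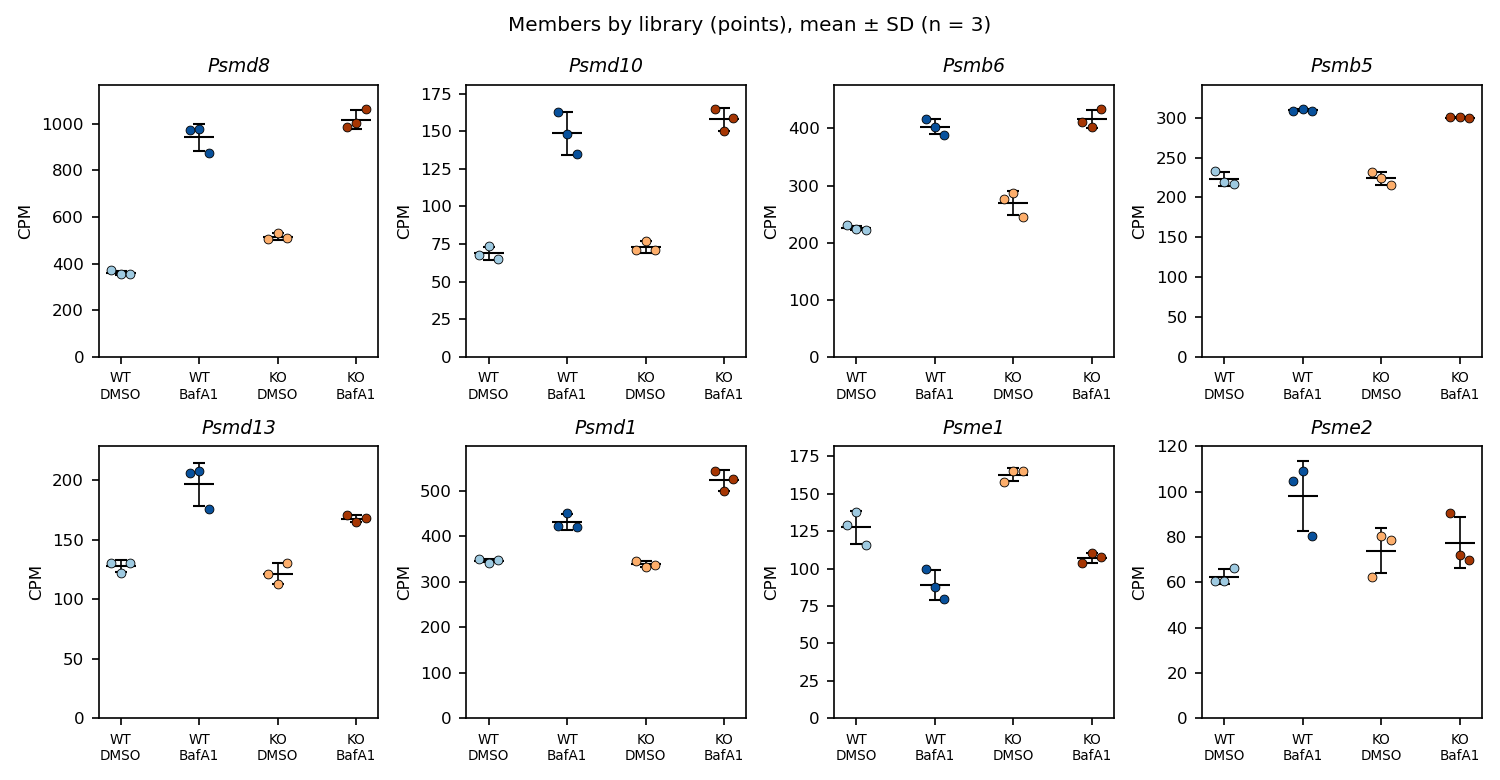
Level in CPM of 8 proteasome genes in each of the 12 libraries (points), with the mean and SD of each group (n = 3, bars). Psmd8, Psmd10, Psmb6, Psmb5, Psmd13 and Psmd1 are higher in all BafA1 libraries than in DMSO libraries of the same genotype, Psme1 is lower in all of them, and Psme2 overlaps between treatments in Trem2 KO.

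Of the 8 genes of the outer alpha ring, which gates the core, 2 rose in WT (median log2 fold change 0.057) and 5 in KO (0.22), and its summed level went up by 7.17% and 20.1%. The 2 in WT are 25%, near the 21.6% of all genes called higher, and the 5 in KO are 62.5%, against 19.8%. Psma7 was measured at 209, 204 and 197 CPM in WT with DMSO, 248, 265 and 235 in WT with BafA1, 169, 152 and 181 in KO with DMSO and 263, 221 and 231 in KO with BafA1. Treatments did not overlap within a genotype, and the log2 fold changes were 0.29 (SE 0.082, adjusted p 0.0049) and 0.51 (SE 0.084, adjusted p 3.24e-05) by edgeR. Psma2 had 247, 215 and 227 CPM in WT with DMSO, 272, 285 and 279 in WT with BafA1, 210.4, 203 and 198 in KO with DMSO and 237, 262 and 263 in KO with BafA1, again with no overlap, and values of 0.28 (SE 0.073, adjusted p 0.00276) and 0.32 (SE 0.074, adjusted p 0.00145).

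Psma5 rose in KO (0.48, SE 0.11, adjusted p 0.00154) and had 0.14 (SE 0.11, adjusted p 0.298) in WT by edgeR. Psma3 was listed at 293, 268 and 260.4 CPM in WT with DMSO, 261, 274 and 255 in WT with BafA1, 274, 276 and 301 in KO with DMSO and 356, 298 and 359 in KO with BafA1. Its KO BafA1 libraries stood highest, with 1 of them inside the range of KO DMSO, and edgeR gave 0.25 (SE 0.08, adjusted p 0.0148) in KO and -0.055 (SE 0.08, adjusted p 0.608) in WT. Psma4 passed narrowly in KO (0.19, SE 0.076, adjusted p 0.0472), whereas Psma1 and Psma6 passed in neither genotype, with log2 fold changes between -0.12 and 0.093. Psma8 had at most 4.04 CPM in any library and was not called. All 8 alpha genes had a larger log2 fold change in KO than in WT, by a median of 0.19, as did 6235 of all 12052 genes. But edgeR called 0 of these 8 differences (2 had an unadjusted p under 0.05), and DESeq2 and limma-voom also called 0. The largest was that of the scarce Psma8 (0.45, SE 0.65). In DMSO 6 of the 8 were lower in KO than in WT, with a median log2 difference of -0.16 and 1 called. In BafA1 the median difference between the genotypes was 0.028.

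Of the 6 ATPase genes of the 19S cap, whose products form the unfolding ring, 3 (50%) rose in WT and 2 (33.3%) in KO. Over all genes 21.6% and 19.8% were called higher. The summed increases of the ATPase genes were 11.4% and 8.89%. Psmc6 stood at 124, 114 and 115 CPM in WT with DMSO, 126, 146 and 143 in WT with BafA1, 114, 134 and 124 in KO with DMSO and 170.0, 183 and 166 in KO with BafA1. KO BafA1 libraries were the highest group, and edgeR gave 0.48 (SE 0.083, adjusted p 7.18e-05) in KO and 0.23 (SE 0.083, adjusted p 0.0236) in WT. Psmc4 had 47.2, 43.0 and 42.9 CPM in WT with DMSO, 58.1, 56.4 and 63.8 in WT with BafA1, 52.2, 53.6 and 40.0 in KO with DMSO and 54.9, 52.9 and 56.0 in KO with BafA1. In WT the treatments were apart (0.42, SE 0.10, adjusted p 0.00145 in edgeR), and in KO they overlapped (0.16, SE 0.10, adjusted p 0.231). Psmc2 rose by similar amounts, 0.25 (SE 0.082, adjusted p 0.0162) in WT and 0.24 (SE 0.084, adjusted p 0.0254) in KO. Psmc1, Psmc3 and Psmc5 were called in neither genotype, with log2 fold changes from -0.13 for Psmc1 in KO to 0.19 for Psmc3 in KO.

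Of the 11 cap subunits without ATPase activity 6 (54.5%) rose in WT and 7 (63.6%) in KO, against 21.6% and 19.8% of all genes. Their summed level went up by 50.4% and 43.5%. Psmd8, a subunit that joins the lid late in its assembly, had the largest step in CPM of any member. It stood at 371, 357 and 355 CPM in WT with DMSO, 973, 978 and 876 in WT with BafA1, 507, 533 and 508 in KO with DMSO and 988, 1005 and 1063 in KO with BafA1. The WT BafA1 libraries were far above WT DMSO, the KO DMSO libraries lay between them, and both BafA1 groups were near the same level. The log2 fold change was 1.38 (SE 0.07, adjusted p 4.62e-13) in WT and 0.98 (SE 0.069, adjusted p 1.76e-10) in KO by edgeR. The 19S subunits as a whole rose by 38.6% in WT and 33.3% in KO, and without Psmd8 by 20.1% and 20.2%. The 20S core, with no gene left out, rose by 20.6% and 28.1%.

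Psmd13, a scaffold subunit of the lid, was at 131, 122 and 130.1 CPM in WT with DMSO, 206, 208 and 175 in WT with BafA1, 121, 113 and 130.3 in KO with DMSO and 170.3, 164 and 168 in KO with BafA1. Every BafA1 library was above every DMSO library, with log2 fold changes of 0.62 (SE 0.08, adjusted p 9.4e-07) and 0.47 (SE 0.082, adjusted p 8.34e-05) in edgeR. Psmd1, a large scaffold of the base that docks ubiquitin-binding partners, had 349, 342 and 349 CPM in WT with DMSO, 423, 452 and 419 in WT with BafA1, 346, 333 and 336 in KO with DMSO and 544, 499 and 527 in KO with BafA1. DMSO libraries of the genotypes overlapped, and the KO BafA1 libraries stood above the WT BafA1 libraries, with 0.32 (SE 0.067, adjusted p 0.000428) in WT and 0.63 (SE 0.067, adjusted p 9.74e-08) in KO. The end of Psmd1 overlaps Gm21972 on the same strand in the annotation, so reads of the shared stretch cannot be told apart. Psmd2, the other large base scaffold, was measured at 276, 287 and 274 CPM in WT with DMSO, 382, 392 and 383 in WT with BafA1, 358, 382 and 369.9 in KO with DMSO and 457, 460.4 and 462 in KO with BafA1. It differed by treatment and by genotype without overlap, and BafA1 changed it by 0.47 (SE 0.065, adjusted p 2.76e-06) and 0.31 (SE 0.065, adjusted p 0.000437).

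Psmd3, a lid subunit, went the same way from a lower KO level, at 113, 116 and 123 CPM in WT with DMSO, 177, 151 and 149 in WT with BafA1, 86.2, 87.6 and 80.8 in KO with DMSO and 109, 109 and 97.02 in KO with BafA1. Treatments were apart in each genotype, with log2 fold changes of 0.44 (SE 0.082, adjusted p 0.000119) and 0.31 (SE 0.088, adjusted p 0.007) in edgeR. Psmd4, a ubiquitin receptor of the cap, rose by 0.31 (SE 0.079, adjusted p 0.00245) and 0.31 (SE 0.079, adjusted p 0.00339), and Psmd6 by 0.33 (SE 0.082, adjusted p 0.00245) in KO, with 0.12 (SE 0.08, adjusted p 0.215) in WT. The other 4 were called in neither genotype: Psmd7, Psmd11, Psmd12 and Psmd14, the last of which encodes the deubiquitinase of the lid (0.094, SE 0.10, adjusted p 0.468 and 0.23, SE 0.10, adjusted p 0.0694). Lid subunits, which sit in one complex, ranged from -0.062 for Psmd12 in KO to 1.38 for Psmd8 in WT.

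**Figure D3:**
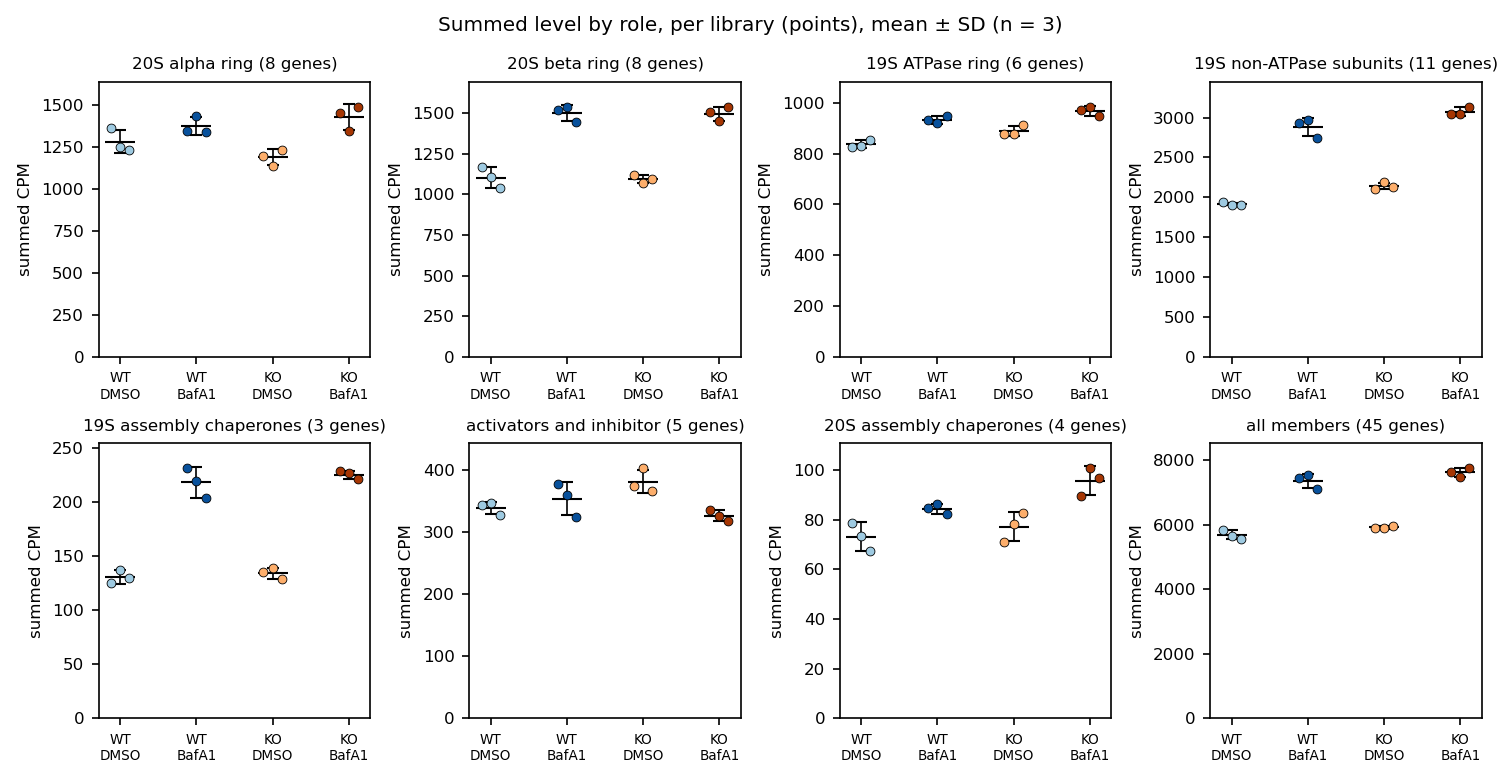
Summed level in CPM of the proteasome genes of each role and of all 45 genes in each of the 12 libraries (points), with the mean and SD of each group (n = 3, bars). The beta ring, the non-ATPase cap subunits and the cap assembly chaperones step up with BafA1 in both genotypes by 36.1% to 67.9%, and the sum of activators and inhibitor goes up by 4.29% in WT and falls by 14.4% in Trem2 KO.

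Among the chaperones of cap assembly, Psmd10, known as gankyrin, carried the change. It stood at 67.9, 73.8 and 65.3 CPM in WT with DMSO, 163, 148 and 135 in WT with BafA1, 70.9, 77.3 and 70.8 in KO with DMSO and 165, 150.1 and 159 in KO with BafA1. BafA1 libraries were far above DMSO libraries and the genotypes overlapped within each treatment, with log2 fold changes of 1.11 (SE 0.086, adjusted p 3.47e-10) and 1.11 (SE 0.087, adjusted p 8.2e-10) by edgeR and a difference between them of 0.0036 (SE 0.12). Psmd9 had 0.33 (SE 0.12, adjusted p 0.0359) in WT and 0.31 (SE 0.13, adjusted p 0.0626) in KO, where it was not called. Psmd5 stayed within 32.2 and 37.4 CPM over all 12 libraries, and edgeR gave 0.031 (SE 0.099) and -0.0037 (SE 0.10).

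The 4 chaperone genes of core assembly were scarce, with means between 7.89 CPM (Psmg1) and 27.1 CPM (Psmg4) in WT DMSO. None passed in WT (edgeR, DESeq2 and limma-voom called 0, and 1 had an unadjusted p under 0.05 in edgeR). In KO Psmg3 (0.36, SE 0.13, adjusted p 0.0338) and Psmg4 (0.28, SE 0.11, adjusted p 0.0399) passed in edgeR, 2 of 4 genes (50%). Over all genes 21.6% were called higher in WT and 19.8% in KO. For KO limma-voom also called 2 higher, and DESeq2 called 0. Psmg3 overlaps Gm26938 on the same strand. Psmg1 was at 8.75, 8.09 and 6.82 CPM in WT with DMSO, 8.89, 10.2 and 11.6 in WT with BafA1, 9.47, 9.54 and 11.6 in KO with DMSO and 13.0, 13.6 and 14.4 in KO with BafA1. Treatments did not overlap in either genotype, yet the calls were missed (0.39, SE 0.18, adjusted p 0.0732 and 0.42, SE 0.17, adjusted p 0.0536). Psmg2 had 0.27 (SE 0.16) and 0.17 (SE 0.17).

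Activator rings can replace the cap and open the core without ubiquitin. Of the 5 activator and inhibitor genes 1 rose and 1 fell in WT, and 0 rose and 1 fell in KO by edgeR, where 0 were higher at an unadjusted p under 0.05 and DESeq2 and limma-voom also called 0 higher. The 20% higher and 20% lower in WT are near the 21.6% and 25.3% of all genes. The 20% lower in KO is near 20.7%. Psme1 and Psme2 encode the partner subunits of the PA28 ring, both known to be induced by interferon gamma, and they moved apart in WT. Psme1 was at 129, 138 and 116 CPM in WT with DMSO, 99.7, 87.5 and 79.8 in WT with BafA1, 158, 165 and 165 in KO with DMSO and 103, 110.2 and 108 in KO with BafA1. BafA1 libraries were below DMSO libraries in each genotype, and this was the one member that fell in either genotype, with log2 fold changes of -0.52 (SE 0.087, adjusted p 3.48e-05) in WT and -0.60 (SE 0.087, adjusted p 6.48e-06) in KO in edgeR. Psme2 was at 60.6, 60.5 and 66.2 CPM in WT with DMSO, 105, 109 and 80.6 in WT with BafA1, 62.4, 80.5 and 78.7 in KO with DMSO and 90.5, 72.1 and 69.9 in KO with BafA1. It rose in WT (0.65, SE 0.12, adjusted p 8.37e-05), and in KO the treatments overlapped (0.077, SE 0.12, adjusted p 0.654).

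Psme1 overlaps Emc9 on the opposite strand, as Psmb7 does Nek6, Psmc3 Slc39a13 and Psma3 3110056K07Rik, and whether counting used strand is not given in the sources here. Of Psme2, 57.0% of the 75-base stretches of its transcript end also occur in Psme2b, a nearly identical gene that had 30.9 CPM in WT DMSO and 44.2 in WT BafA1. With counts of both added the log2 fold change was 0.61 in WT and 0.054 in KO. Psme3, the nuclear activator, Psme4, a large single-chain activator, and Psmf1, an inhibitor of the core, were called in neither genotype. Psme3 had 28.0, 24.9 and 29.2 CPM in WT DMSO, 28.4, 29.0 and 29.7 in WT BafA1, 26.6, 34.9 and 26.8 in KO DMSO and 24.2, 34.9 and 23.2 in KO BafA1. Psme4 was at 93.7, 93.7 and 95.5 CPM in WT with DMSO, 114, 102 and 107 in WT with BafA1, 100.5, 93.1 and 73.1 in KO with DMSO and 87.4, 84.3 and 87.3 in KO with BafA1. Psmf1 was at 32.5, 30.0 and 21.5 CPM in WT with DMSO, 30.5, 32.6 and 28.1 in WT with BafA1, 28.2, 30.0 and 23.6 in KO with DMSO and 30.0, 25.4 and 30.1 in KO with BafA1. Treatments overlapped in both genotypes for Psme3 and Psmf1 and in KO for Psme4, whose WT BafA1 libraries were above WT DMSO. For these 3 genes the log2 fold changes lay between -0.12 and 0.19.

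Psme1 and Psme2 have interferon-responsive relatives in the immunoproteasome, whose 3 catalytic genes take the place of the constitutive beta subunits. Psmb9 stood at 32.0, 33.0 and 27.7 CPM in WT with DMSO, 17.6, 20.3 and 17.7 in WT with BafA1, 40.7, 43.9 and 54.9 in KO with DMSO and 28.3, 29.6 and 29.6 in KO with BafA1. It fell in both genotypes (-0.73, SE 0.13, adjusted p 5.25e-05 and -0.67, SE 0.12, adjusted p 9.43e-05 in edgeR), as Psme1 did. Psmb8 was not called (0.091, SE 0.087 and -0.13, SE 0.086), and Psmb10 rose in WT (0.42, SE 0.12, adjusted p 0.00605) and had 0.075 (SE 0.13) in KO. Beside these values, 21 of 26 listed interferon-stimulated genes fell and 2 rose in WT, and 24 fell and 1 rose in KO. Their summed level lay between 569 and 608 CPM in WT DMSO, 286 and 349.6 in WT BafA1, 933 and 1152 in KO DMSO, and 399 and 507 in KO BafA1. All 9 tested granulocyte markers fell in both genotypes, and the part of either list in these results was not tested.

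**Figure D4:**
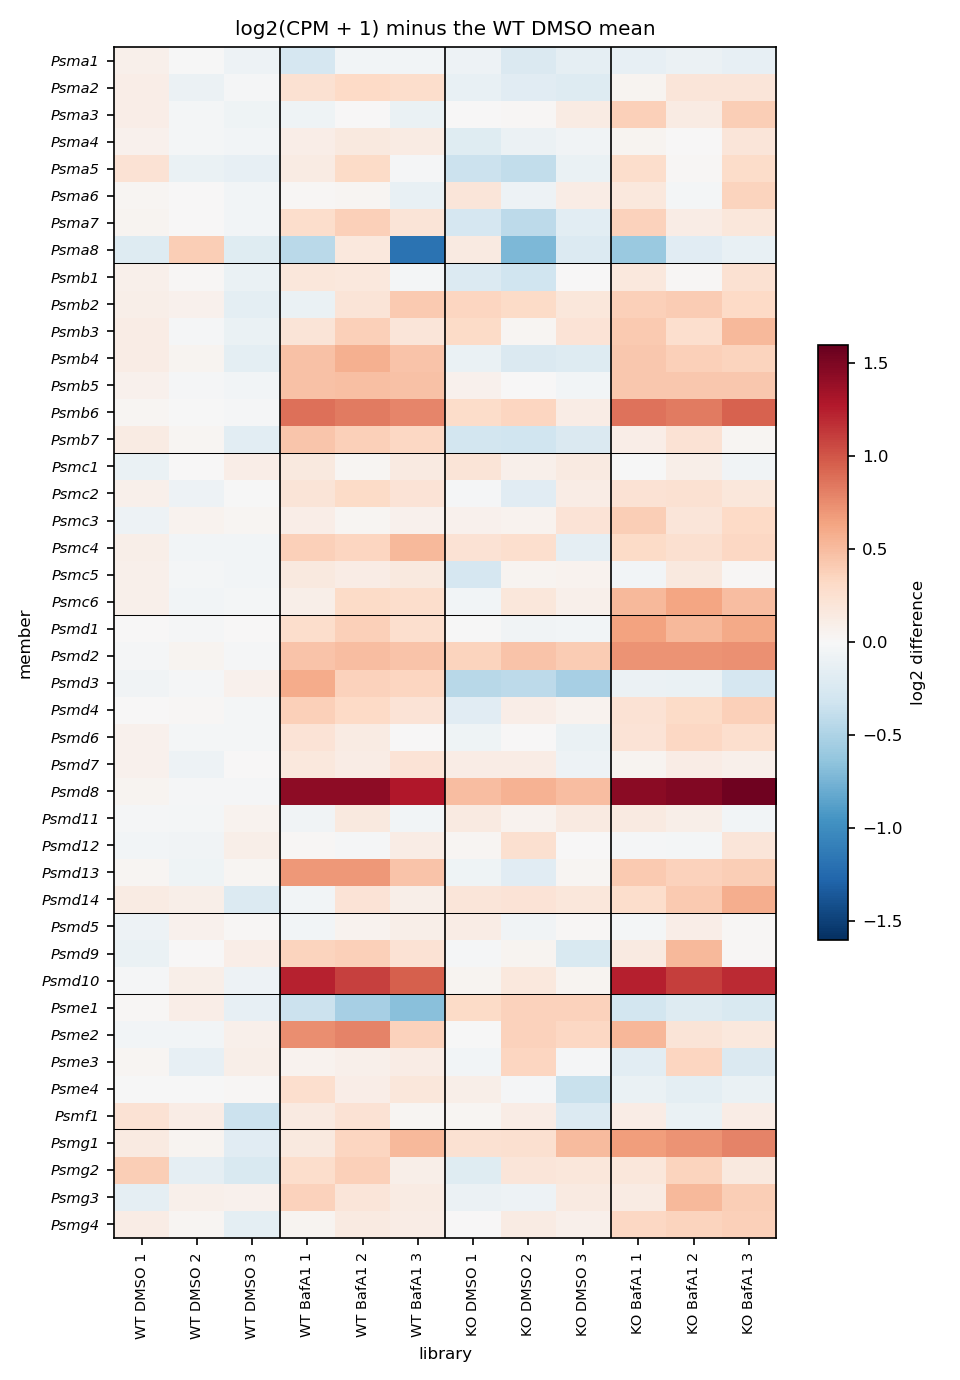
Difference of log2(CPM + 1) from the WT DMSO mean for the 44 tested proteasome genes (rows, grouped by role) in each of the 12 libraries (columns); red is higher and blue lower. The rows of Psmd8, Psmd10 and Psmb6 are the deepest red in all 6 BafA1 libraries, and the row of Psme1 is blue in the 6 BafA1 libraries and red in the 3 Trem2 KO DMSO libraries.

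Promoters of some members that rose in both genotypes are shown, because NRF1 is known to bind antioxidant response elements (ARE) near proteasome genes. They are Psmd8, Psmd10 and the catalytic genes Psmb6 and Psmb5. Psmb5 was not among the strongest, at 0.47 in WT against 0.62 for Psmd13, whose window holds no ARE match. The sequences are the 250 bases before the annotated start, 5′ to 3′ on the strand of the gene, from RefSeq for assembly GRCm38.p6, in which 37 of the 45 genes were matched (40 starts). Capitals mark matches to the ARE letters TGACNNNGC, searched on both strands. Psmb6 and Psmb5 hold 1 match each, and Psmd8 and Psmd10, with the largest fold changes, hold none.
Psmb6, chr11:70525107-70525356, plus strand: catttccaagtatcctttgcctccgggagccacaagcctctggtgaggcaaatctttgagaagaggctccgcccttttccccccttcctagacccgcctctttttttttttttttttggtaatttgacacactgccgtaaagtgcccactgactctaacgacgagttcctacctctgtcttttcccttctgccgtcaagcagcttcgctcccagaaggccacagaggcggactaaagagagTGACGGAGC
Psmb5, chr14:54617996-54618245, minus strand: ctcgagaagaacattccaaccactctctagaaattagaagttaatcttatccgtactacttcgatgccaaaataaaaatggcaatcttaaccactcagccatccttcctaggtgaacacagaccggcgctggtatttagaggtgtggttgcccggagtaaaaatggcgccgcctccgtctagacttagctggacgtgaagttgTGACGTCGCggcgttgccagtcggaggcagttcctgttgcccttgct
Psmd8, chr7:29180674-29180923, minus strand: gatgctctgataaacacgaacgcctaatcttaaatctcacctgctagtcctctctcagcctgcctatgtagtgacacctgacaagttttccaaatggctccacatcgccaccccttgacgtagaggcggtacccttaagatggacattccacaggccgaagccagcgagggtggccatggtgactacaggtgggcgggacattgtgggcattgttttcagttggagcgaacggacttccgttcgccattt
Psmd10, chrX:140956712-140956961, minus strand: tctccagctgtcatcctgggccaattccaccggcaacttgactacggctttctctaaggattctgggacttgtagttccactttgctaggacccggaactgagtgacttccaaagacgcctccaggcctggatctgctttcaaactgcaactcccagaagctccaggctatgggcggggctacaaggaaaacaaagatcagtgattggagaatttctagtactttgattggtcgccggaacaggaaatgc

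Over windows of 250 bases before to 50 after the start, the ARE letters were present in 6 of 40 member windows (15%) and in 12.4% of 32851 windows of all genes. The member genes were Psmb5, Psmb6, Psmc6, Psmd9, Psmd12 and Psme4. The letters TCACGTGA, a site of the lysosomal regulator TFEB, were in 0 of 40 and in 0.974% of all windows. The interferon element (GAAA, any 2 bases and GAAA again) was in 5 (12.5%, against 3.44% of all), in Psmb3, Psmd4, Psmd9, Psme1 and Psmg4. Of these only Psme1 was called lower with BafA1. Called higher were Psmb3 (log2 fold change 0.27 in WT), Psmd4 (0.31 in each genotype), Psmd9 (0.33 in WT) and Psmg4 (0.28 in KO). Other letters were less frequent in members than in all windows: CCAAT in 32.5% against 37.4%, TTCNNNGAA (bound by STAT factors) in 5% against 8.3%, and TGATGNAA (bound by ATF4 and its partners) in 2.5% against 3.97%. These shares are descriptions of letters in a window and were not tested. Psme1, the member that fell, holds its interferon element just after the start, on the minus strand, marked by capitals in the 30 bases that begin 1 base before the first transcribed one.
Psme1, chr14:55578493-55578522, plus strand: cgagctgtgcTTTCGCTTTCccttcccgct

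Of 11 listed genes that act on NRF1 or with it 9 rose and 1 fell in WT (median log2 fold change 0.71), and 6 rose and 1 fell in KO (0.46). Over all genes 21.6% were called higher in WT and 19.8% in KO. Nfe2l1 itself, the gene of NRF1, stood at 66.4, 72.1 and 75.5 CPM in WT with DMSO, 138, 144 and 143 in WT with BafA1, 94.0, 97.7 and 78.9 in KO with DMSO and 147, 141 and 128 in KO with BafA1. BafA1 libraries were all above DMSO libraries, with 0.98 (SE 0.088, adjusted p 3.38e-09) and 0.62 (SE 0.088, adjusted p 5.63e-06) in edgeR. Among ER-associated degradation genes that deliver NRF1 to the cytosol, Derl1 rose by 1.22 (SE 0.079) and 0.90 (SE 0.081), and Sel1l by 0.83 (SE 0.082) and 0.57 (SE 0.084). The ligase gene Syvn1 rose by 0.92 (SE 0.15) and 0.54 (SE 0.15), though its treatments overlapped in KO. Vcp, the gene of p97, rose in WT (0.46, SE 0.073) and was not called in KO (0.12, SE 0.074, edgeR adjusted p 0.23). Maff, a small Maf partner, rose from 2.06 CPM ± 0.811 to 14.3 ± 1.17 in WT (SD, n = 3). Ddi2, whose protease activates NRF1, fell (-0.37, SE 0.09, adjusted p 0.0019 and -0.32, SE 0.092, adjusted p 0.00775), and Ngly1 was not called (0.073, SE 0.13 and 0.097, SE 0.14).

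Other genes around the proteasome moved in part. Of 12 further subunit and assembly genes 4 rose and 1 fell in WT, and 6 rose and 0 fell in KO (edgeR; 1 was lower at an unadjusted p under 0.05). Pomp, the core maturation factor, rose in KO from 286 CPM ± 9.93 to 379 ± 20.6 (0.41, SE 0.078, adjusted p 0.000209) and had 0.18 (SE 0.076, adjusted p 0.0537) in WT. Txnl1, a cap-bound thioredoxin, rose in both (0.51, SE 0.081 and 0.50, SE 0.081), and so did Zfand5, a proteasome activator (0.51, SE 0.077 and 0.30, SE 0.077). Uchl5, a deubiquitinase of the cap, fell in WT (-0.34, SE 0.091, adjusted p 0.00361). Ubiquitin genes and shuttle factors rose in 5 of 13 in each genotype, among them Ubb (0.63, SE 0.075 and 0.39, SE 0.075), Rad23b (0.59, SE 0.072 and 0.29, SE 0.074) and Nub1 (0.75, SE 0.079 and 0.47, SE 0.08). p97 cofactors rose in 4 of 7 in WT, and in KO 2 rose and 2 fell. Cytosolic peptidases, which trim what the proteasome releases, rose in 3 of 8 and fell in 2 in WT, and rose in 2 and fell in 1 in KO. Npepps had 0.58 (SE 0.078) and 0.24 (SE 0.079), and Tpp2 -0.39 (SE 0.079) and -0.36 (SE 0.081). Over all genes 21.6% were called higher and 25.3% lower in WT, and 19.8% and 20.7% in KO. The peptidases lower in WT (25%) and higher in KO (25%) were near those shares.

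For scale, the subunit genes of the V-ATPase, the target of BafA1, rose in 15 of 17 in WT (median log2 fold change 0.71) and in 13 of 17 in KO (0.47), where 1, Atp6v0a1, fell (-0.37, SE 0.082, adjusted p 0.000987; named after its value was seen). The proteasome medians were 0.22 and 0.25, and the summed V-ATPase level went up by 60.3% and 36.5%, against 29.3% and 28.9%. No test was made between the lists.

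The next comparison asked how Trem2 KO differed from WT without the drug. Few proteasome genes did: 7 of 44 were called, against 30.3% of all genes, and 4 were higher in KO and 3 lower by edgeR, against 13.8% and 16.5% of all genes, and the median log2 difference was 0.039 (-0.0073 over all genes). The 4 higher were Psmd8, Psmd2, Psme1 and Psmb6. In Psmd8 the KO DMSO libraries were all above WT DMSO, a log2 difference of 0.52 (SE 0.07, adjusted p 5.24e-06), and in Psmd2 0.41 (SE 0.065, adjusted p 4.05e-05). Psme1 differed by 0.35 (SE 0.086, adjusted p 0.00293), and Psmb6 by 0.25 (SE 0.073, adjusted p 0.0101), a call lost without KO DMSO replicate 2 (adjusted p 0.0536) and without a filter (0.083). The 3 lower were Psmd3 (-0.47, SE 0.087, adjusted p 0.000235), Psma7 (-0.28, SE 0.084, adjusted p 0.0122) and Psmb7 (-0.29, SE 0.096, adjusted p 0.0249). Leaving out KO DMSO replicate 2 ended the call of Psma7 (0.0975), and that of Psmb7 ended without any of 4 libraries, WT DMSO replicates 1 and 2 and KO DMSO replicates 1 and 2 (up to 0.139).

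The immunoproteasome genes Psmb8 (0.47, SE 0.087, adjusted p 0.000192) and Psmb9 (0.59, SE 0.12, adjusted p 0.000494) were higher in KO DMSO along with Psme1. Of the 26 interferon-stimulated genes 22 were higher and 0 lower in KO (edgeR; 0 lower at an unadjusted p under 0.05), of the 9 tested granulocyte markers 8 were higher, and all 28 listed cell cycle genes were lower. The cell cycle sum lay between 1632 and 1722 CPM in WT DMSO and between 464 and 539.5 in KO DMSO. Their part in the proteasome differences was not tested. Pomp was lower in KO (-0.53, SE 0.078, adjusted p 1.44e-05), and Nfe2l1 was higher (0.34, SE 0.092, adjusted p 0.00682).

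**Figure D5:**
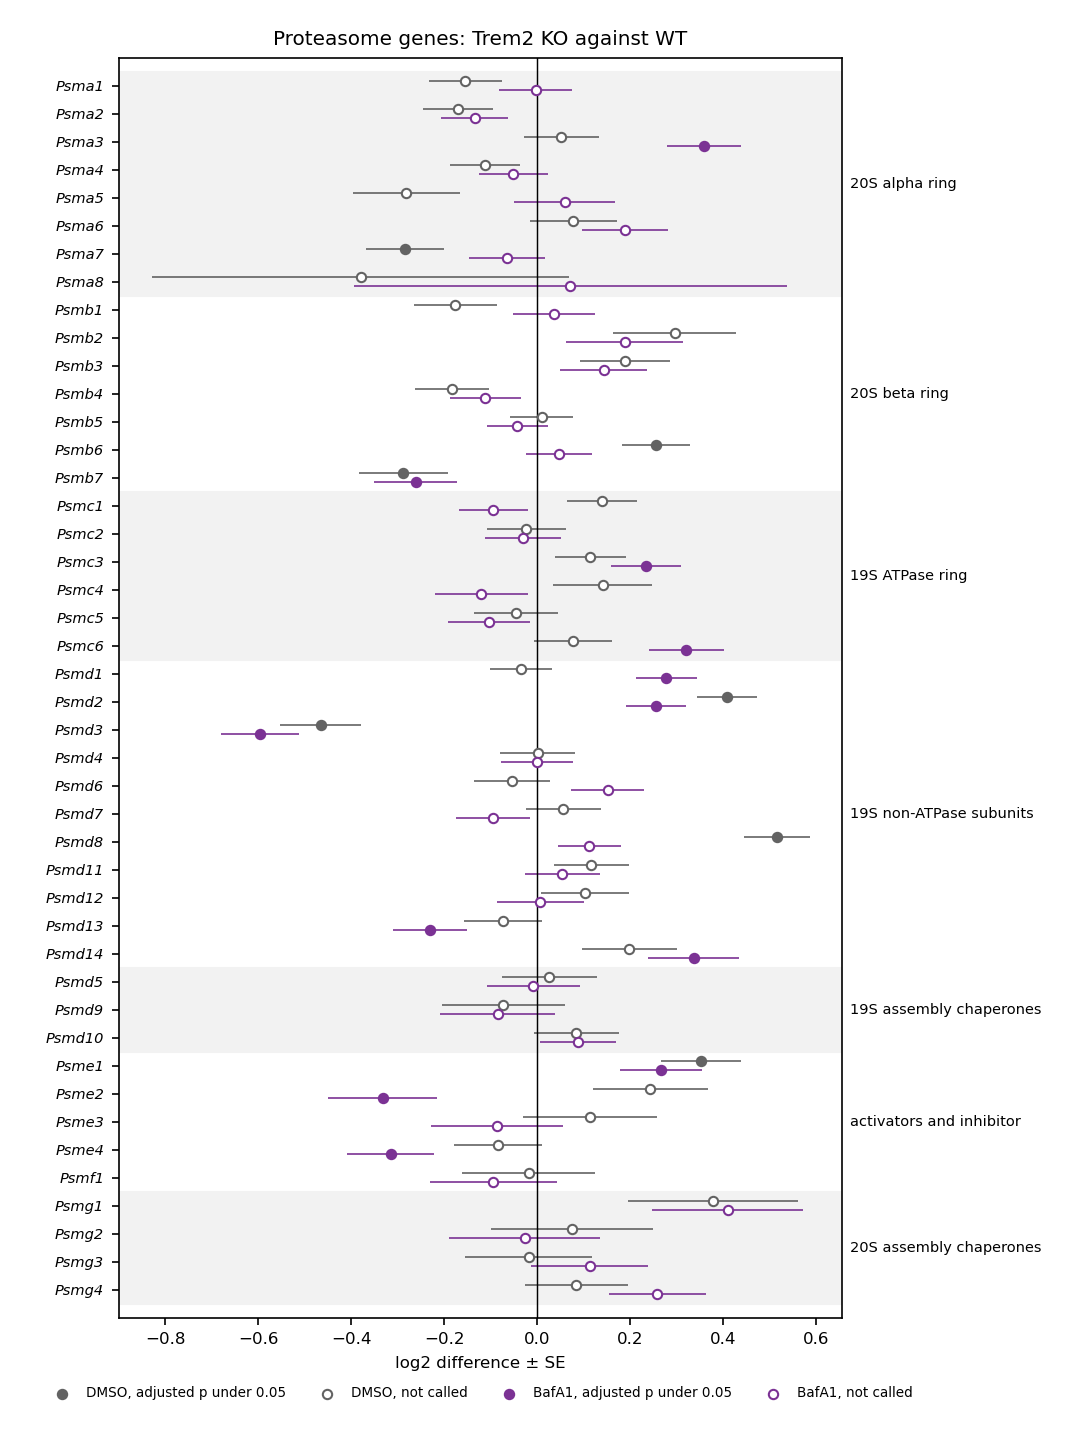
log2 difference with its standard error for Trem2 KO against WT in DMSO (grey) and in BafA1 (purple) for the 44 tested proteasome genes, grouped by role; filled points passed an adjusted p of 0.05 in edgeR. Most points lie near 0. Of the members called in both treatments, Psmd2 and Psme1 are to the right and Psmd3 and Psmb7 to the left. Psmd8 is to the right in DMSO (0.52) but close to 0 in BafA1 (0.11).

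Under BafA1 the genotypes differed in 12 of 44 members, against 26.7% of all genes, with 7 higher in KO and 5 lower, against 12.5% and 14.2% of all genes, with a median of 0.0033 (0.011 over all genes). Psma3 (0.36, SE 0.08, adjusted p 0.00202), Psmc6 (0.32, SE 0.081, adjusted p 0.00567), Psmd1 (0.28, SE 0.066, adjusted p 0.00356) and the deubiquitinase gene Psmd14 (0.34, SE 0.099, adjusted p 0.0146) were higher in KO by edgeR. Psmd2 (0.26, SE 0.064), Psme1 (0.27, SE 0.088) and Psmc3 (0.23, SE 0.075) were the other 3. Psmd3 was the most clearly lower (-0.60, SE 0.083, adjusted p 1.82e-05), as it was in DMSO. Psme4 (-0.32, SE 0.093), Psme2 (-0.33, SE 0.12), Psmb7 (-0.26, SE 0.089) and Psmd13 (-0.23, SE 0.079) were lower too. Beside them, 16 of 26 interferon-stimulated genes were higher and 19 of 28 cell cycle genes lower in KO with BafA1. Of these 12 members, Psma3, Psmc6, Psmd1 and Psmd3 held in all 22 alternatives. The calls of Psmb7, Psmc3, Psmd13, Psme1 and Psme2 ended when 1 of several BafA1 libraries was left out, with adjusted p up to 0.172. These were WT replicates 1 and 2 and KO replicates 1 and 3 for Psmb7, all but KO replicate 2 for Psmc3, all but WT replicate 3 for Psmd13, replicates 2 and 3 of both genotypes for Psme1, and WT replicates 1 and 2 and KO replicates 2 and 3 for Psme2. The call of Psmd2 ended without a filter (0.0603), that of Psmd14 without WT BafA1 replicate 1 (adjusted p 0.0932 at most) or KO BafA1 replicate 3, and that of Psme4 without WT BafA1 replicate 1 (0.0821).

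The last comparison asked whether the response to BafA1 itself differed between the genotypes. Among members it differed in 3 of 44, against 8.81% of all genes, 1 with a larger log2 fold change in KO and 2 with a smaller one, against 4.88% and 3.93% of all genes. The KO response of Psmd8 was different by -0.40 on the log2 scale (SE 0.098, edgeR adjusted p 0.0114), a difference that held in all 21 alternatives without a fold limit, where its highest adjusted p with a library left out was 0.0343. The levels behind it were a higher KO DMSO level and BafA1 levels that were not called different (0.11, SE 0.068, adjusted p 0.24), although each KO BafA1 library was above each WT BafA1 library. Psmd1 had the larger response in KO, by 0.31 (SE 0.094, adjusted p 0.041), and here the DMSO levels were not called different (-0.035, SE 0.067, adjusted p 0.742). Psme2 had the smaller response in KO (-0.58, SE 0.17, adjusted p 0.0373). The call of Psmd1 ended without any one of 11 libraries (all but KO BafA1 replicate 2), and that of Psme2 without any one of 8 (all but WT DMSO replicate 3, WT BafA1 replicate 3, KO DMSO replicate 1 and KO BafA1 replicate 1), with adjusted p up to 0.114 and 0.0989. The call of Psmd1 also ended with RLE factors (0.0526) and without a filter (0.143), and that of Psme2 with library size alone.

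For the catalytic genes the difference of responses was not called, with -0.053 (SE 0.094) for Psmb5, -0.21 (SE 0.10) for Psmb6 and 0.028 (SE 0.13) for Psmb7, and adjusted p of 0.795, 0.219 and 0.929 in edgeR. A missed threshold does not show that the responses were the same. Beside the members, the difference was called for Vcp, the gene of p97, which rose in WT (0.46, SE 0.073, adjusted p 1.54e-05) and had 0.12 (SE 0.074, adjusted p 0.23) in KO (difference -0.35, SE 0.10, adjusted p 0.0398). By edgeR Vcp was lower in KO than in WT both in DMSO (-0.23, SE 0.074, adjusted p 0.0224) and in BafA1 (-0.57, SE 0.073, adjusted p 6.27e-06). For Nfe2l1 the difference was -0.36 (SE 0.12, adjusted p 0.0709). Rps27a, which encodes ubiquitin fused to a ribosomal protein, rose in KO (0.59, SE 0.085, adjusted p 6.83e-06) and had -0.0052 in WT, with a difference of 0.59 (SE 0.12, adjusted p 0.00299).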

How the data were processed

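Estimated counts per gene (expected counts from Salmon on GRCm39, per the submitters' processing notes) were deposited by the authors for 12 libraries; no source used here gives the versions, annotation, strand setting or duplicate removal. The deposited counts are not normalized, 42.0% of those above 0 are not whole (tolerance 1e-06), and they were rounded. A second deposited table holds log2 CPM of the authors, which values recomputed with a prior count of 2 match within 0.00045, and it was not tested. Symbols come from the deposited gene table. The results of 1 listed gene are not reported here.

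The test was edgeR's quasi-likelihood test (version 4.0.16, R 4.3.3) with TMM factors, on genes passing filterByExpr (minimum count 10, minimum total 15), in 1 fit of all 12 libraries with a mean per group, and 8 residual degrees of freedom. Adjusted p is Benjamini-Hochberg over all 12052 genes, called below 0.05 whatever the fold. Each standard error is the log2 value divided by the root of F. Means ± SD are over 3 libraries, and CPM use TMM library sizes. The test was also run on simulated counts. That run changed fewer genes than were called here, and by larger folds than most members showed. It therefore does not measure the errors for small shifts.

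The members, gene lists (Paaf1 was listed and not found), tests and alternatives were chosen with earlier results of these data known. Members with values in every library are mostly, within each contrast and role, the 2 with the smallest p, with Psmb5, Psmb6, Psmb7, Psme1 to Psme4 and Psmf1. Others of the 45 are named with summary values, and a few of them with all values.

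Replicates differed by more than sampling noise (chi-square 2.27 to 6.22 per degree of freedom), so none was merged. RNA integrity numbers were 9.7 to 9.9 per the labels. Low counts are limited by counting error. Tags of 11 members can match 18 annotated copies, whose counts were added as an alternative chosen after seeing the data. Further alternatives left out each library in turn, added a replicate block or a 1.5-fold limit, fitted the 6 libraries of a comparison alone, used DESeq2 1.42.0 or limma-voom (limma 3.58.1), scaled by RLE, upper-quartile or total counts, or replaced the filter by none or by 10 CPM in at least 3 libraries.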

Additional observations from a re-analysis of the deposited data

Results flagged for a closer look

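Genes are given here when the test of the difference between the BafA1 responses of Trem2 KO and WT passed an adjusted p of 0.05. Values are KO minus WT on the log2 scale from edgeR, over 3 libraries in each of 4 groups. Among proteasome genes these were Psmd8 at -0.40 (SE 0.098, adjusted p 0.0114), Psmd1 at 0.31 (SE 0.094, adjusted p 0.041) and Psme2 at -0.58 (SE 0.17, adjusted p 0.0373). They are 3 of 44 members, against 8.81% of all genes. Of the alternatives without a fold limit, 13 ended the call of Psmd1 and 9 that of Psme2, while that of Psmd8 held in all 21.

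Beside them the heat-shock and arsenite-inducible proteasome regulator gene Zfand2a had -0.53 (SE 0.16, adjusted p 0.0402), the p97 gene Vcp -0.35 (SE 0.10, adjusted p 0.0398) and the small Maf gene Mafk -0.81 (SE 0.25, adjusted p 0.0433). The ubiquitin fusion gene Rps27a had 0.59 (SE 0.12, adjusted p 0.00299) and the p97 cofactor gene Nploc4 -0.62 (SE 0.15, adjusted p 0.0106). Nploc4 rose in WT (0.31 (SE 0.10, adjusted p 0.0162)) and fell in KO (-0.31 (SE 0.11, adjusted p 0.0235)). Zfand2a was already higher in KO in DMSO, at a mean of 63.5 CPM against 36.3 in WT (0.82, SE 0.12, adjusted p 1.06e-05). Its means with BafA1 were 74.4 CPM in KO and 60.7 in WT. The genes of this paragraph were not followed through the alternatives, and several lie just under the threshold.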

How the results depend on the processing

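No direction of a called value turned under any alternative. Counts below are members higher and lower unless one is named. A further 1.5-fold limit left 5 and 0 in WT, 4 higher in KO, 0 and 0 for the genotypes in DMSO, 0 and 1 for the genotypes in BafA1, and 0 and 0 for the difference of responses. Library size alone gave 6 lower for the genotypes in DMSO and 1 lower for the difference, and upper-quartile factors 2 lower for the genotypes in BafA1. No filter gave 4 and 3 for the genotypes in BafA1 and 0 higher for the difference, and RLE factors 0 higher for the difference. The causes were not tested, except that a fold limit removes small changes by construction. With each library left out in turn, WT gave 15 to 21 higher (median log2 fold change 0.20 to 0.28) and KO 19 to 25; the genotypes in DMSO 3 to 5 higher and 1 to 5 lower, in BafA1 4 to 7 higher and 1 to 5 lower; the difference 0 to 2 higher and 1 to 2 lower. No scaling moved the median of all genes by 0.1.

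Between treatments in KO, deviations of same-numbered libraries correlated at 0.074 to 0.16, above those of differently numbered ones (-0.11 to -0.0028). In WT the ranges overlapped (-0.0051 to 0.061 against -0.11 to 0.068). Whether numbers pair samples, in KO above all, is thus not settled, and the main fit has no block. A replicate block gave 19 and 1 in WT, 26 and 1 in KO, 4 and 3 and then 7 and 5 between genotypes, and 2 higher and 2 lower for the difference. The difference of responses needs all 12 libraries, so no fit to 6 was made for it. Genes under about 10 counts, such as Psmb11, could not be tested at this depth.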
